A study of Mus musculus with 4 samples.

Results

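Interferon-stimulated genes and the interferon regulatory factors (IRFs) were described in FAP+ cells taken by sorting out of mouse pancreatic ductal adenocarcinoma, a spontaneous tumour model on the C57BL/6 genetic background. The tested cells were FAP+ CD34+ and were set against FAP+ CD34- cells, with 2 libraries of each. FAP is fibroblast activation protein, a surface protease of tumour stroma, and CD34 is a sialomucin of endothelial, haematopoietic and some stromal cells. Members were the rows of the count table whose name begins with Ifi, Irf and a digit, Isg, Oas or Gbp and a digit, together with a short list of further names that includes Mx1, Mx2, Stat2, Rsad2, Usp18, Ddx58, Dhx58, Igtp, Irgm1, Rtp4, Bst2 and Xaf1. They were 71 of 22609 genes. The rule went by name, so it also took in Irf2bp1, Irf2bp2 and Isg20l2, which are no IRFs and no classical interferon-stimulated genes. No source used here gives the number or age of the animals behind a library, or the alleles that drive the tumours, and the p-values below measure only the spread between these 4 libraries.

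Type I interferons signal through Ifnar1 and Ifnar2 to STAT transcription factors, among them Stat2, which join Irf9 and bind the interferon-stimulated response element (ISRE) upstream of antiviral genes. Interferon gamma signals through Ifngr1 and Ifngr2 to genes with a gamma-activated sequence (GAS), and the guanylate-binding proteins (GBPs) and Irf1 are its best known targets. Fibroblasts respond to both and are a classical cell type for the study of type I interferon.

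Levels within a gene are CPM, counts scaled to the summed counts of the library, and levels between genes are the authors' deposited RPKM, which are per length. Log2 fold changes are CD34+ over CD34- from edgeR's quasi-likelihood fit to all 13875 genes that passed its filter on low counts (about 0.744 CPM in at least 2 libraries), and adjusted p is Benjamini-Hochberg over all of them. Total counts lay between 10322354 and 14633561. Of the 71 members 63 passed the filter. Irf4 was under its level in both CD34- libraries and passed only through its CD34+ libraries. Gbp4, Gbp8 and Oas3 were under it in a single CD34- library each (0.530, 0.454 and 0.342 CPM), so they also needed their CD34+ libraries to pass. The 8 members that did not pass (Gbp10, Gbp11, Ifitm6, Ifitm7, Oas1d, Oas1e, Oas1f and Oas1h) were at or under 0.678 CPM in every library. RNA was amplified before sequencing, so counting intervals would cover counting error only, and in such bulk samples fewer cells of a type and less RNA per cell cannot be told apart.

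The labelled cell type and other cells in the gate were checked by their markers before the members were compared. The 10 fibroblast markers summed to 40082 and 40027 CPM in CD34+ libraries, against 41209 and 37472 CPM in CD34- libraries, mostly from Col1a1, Col1a2 and Col3a1. Of these 10 markers 4 lay lower in both CD34+ libraries and 1 higher. Pdgfrb was at 296 and 330 CPM against 599 and 486 CPM, and Fap at 79.0 and 39.8 CPM against 142 and 136 CPM in CD34- libraries. CD34+ replicate 1 stood apart for some other lists. Its 13 myeloid markers summed to 320.5 CPM, against 179 CPM in CD34+ replicate 2 and 175 and 101 CPM in the CD34- libraries. Cd14 and Lyz2 were the most abundant of them, at 115 and 70.9 CPM in CD34+ replicate 1. Markers of T and NK cells in it summed to 20.3 CPM, nearly all from Cd3e at 18.99 CPM, against 2.27 CPM in CD34+ replicate 2 and 4.01 and 2.19 CPM in the CD34- libraries; Cd3e had 0 counts in both CD34- libraries. The 4 mesothelial markers summed to 262 and 137 CPM against 133 and 91.5 CPM, the 8 epithelial markers to 887 and 575 CPM against 819 and 425 CPM, the 8 pericyte markers to 393 and 315 CPM against 489 and 565 CPM, and the 7 markers of B and plasmacytoid dendritic cells to 12.98 and 17.7 CPM against 2.80 and 8.68 CPM. In CD34+ libraries the mesothelial sum was mostly Wt1, at 206 and 120 CPM against 57.7 and 79.3 CPM. Msln overlapped, at 49.8 and 13.8 CPM against 75.0 and 11.6 CPM in CD34- libraries. Ly6d was the largest part of the B and plasmacytoid dendritic sum, at 7.56 and 13.6 CPM against 1.29 and 7.72 CPM. The 10 endothelial markers summed to 333 and 341 CPM in CD34+ libraries, against 261 and 348 CPM in CD34- libraries, mostly from Eng. Without Eng the sums were 89.4 and 72.8 CPM against 39.4 and 44.6 CPM, and 7 of the 10 endothelial markers lay higher in both CD34+ libraries and 2 lower. Pecam1 was at 15.8 and 11.7 CPM against 1.51 and 3.42 CPM, and Vwf at 27.1 and 16.3 CPM against 3.03 and 3.42 CPM in CD34- libraries. Of the other lists, 3 of 13 myeloid and 5 of 10 T and NK markers lay higher in both CD34+ libraries. So did 4 of 7 B and plasmacytoid dendritic and 3 of 4 mesothelial markers. The counts were 1 of 8 epithelial, 0 of 8 pericyte and 1 of 10 fibroblast markers, against 23.4% of all tested genes. Lower in both were 4 of 8 pericyte, 4 of 10 fibroblast and 1 of 10 T and NK markers, against 26.6% of all tested genes. Besides Cd3e, the T and NK markers counted as higher (Cd3d, Cd3g, Cd8a and Nkg7) had at most 6 counts in any library. The part of the other cell types in the results below was not tested.

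**Figure D1:**
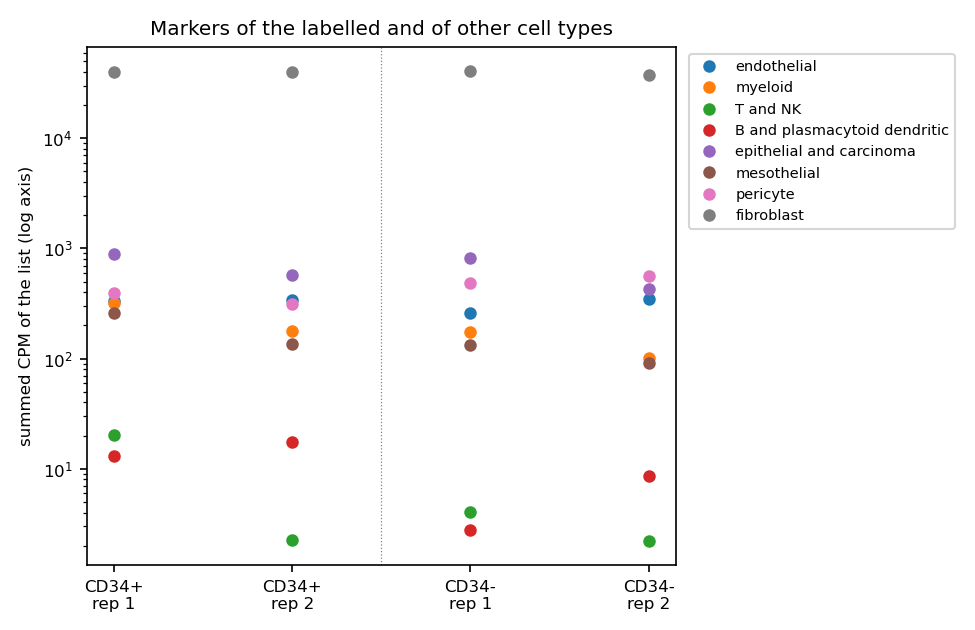
Summed CPM of each marker list (vertical log axis) in the 4 libraries, CD34+ on the left of the dotted line and CD34- on the right, 1 point per list and library. Fibroblast markers lie between 37472 and 41209 CPM in the 4 libraries, and T and NK, myeloid and mesothelial sums are highest in CD34+ replicate 1. Most of the fibroblast sum comes from Col1a1, Col1a2 and Col3a1, and nearly all of the T and NK sum in CD34+ replicate 1 comes from Cd3e.

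Most interferon-stimulated genes lay higher in CD34+ than in CD34- cells, but no member passed the test over all genes. Of the 63 tested members 52 had a positive log2 fold change, against 48.7% of all tested genes, and the members' median was 0.63, against -0.020 for all tested genes. At an adjusted p of 0.05 edgeR called 0 members higher and 0 lower, and it called 0.0% of all genes in each direction. At an unadjusted p of 0.05 it placed 20 members higher (background 9.81%) and 1 lower (background 6.65%). For 36 members both CD34+ libraries lay above both CD34- libraries (background 23.4%), and for 4 both lay below (background 26.6%). A log2 fold change of 1 or more was seen for 20 members (background 12.1%) and of -1 or less for 0 (background 4.45%). These counts include Irf4, and without it 51 of 62 members were positive, with a median of 0.61, and 19, 35 and 19 members were higher by the last 3 measures. Gbp4, Gbp8 and Oas3, which also needed their CD34+ libraries to pass the filter, are still among these 62. DESeq2 called 4 members higher (background 2.85%) and 0 lower (background 1.3%), and limma voom called 0. With no filter on low counts edgeR called 2 higher (background 0.924%) and 0 lower (background 0.653%). All members were measured in the same 4 libraries and many are induced by the same factors, so these shares are descriptions of the list. Leaving out 1 library sets a lone library against a pair, so the spread comes from the other group and the lone library is assumed to vary like it; the following counts are descriptions. Without CD34+ replicate 1 the number at an unadjusted p of 0.05 was 7 (edgeR, background 5.55%), without CD34+ replicate 2 it was 21 (background 12.3%), without CD34- replicate 1 it was 4 (background 5.24%) and without CD34- replicate 2 it was 11 (background 6.51%). In those fits 51, 49, 45 and 55 members had a positive log2 fold change. By limma on the authors' RPKM 36 of 59 members lay above 0 on the log2 scale, at a median of 0.11 against -0.36 for all genes on that scale. The share of all genes above 0 on that scale was not counted.

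**Figure D2:**
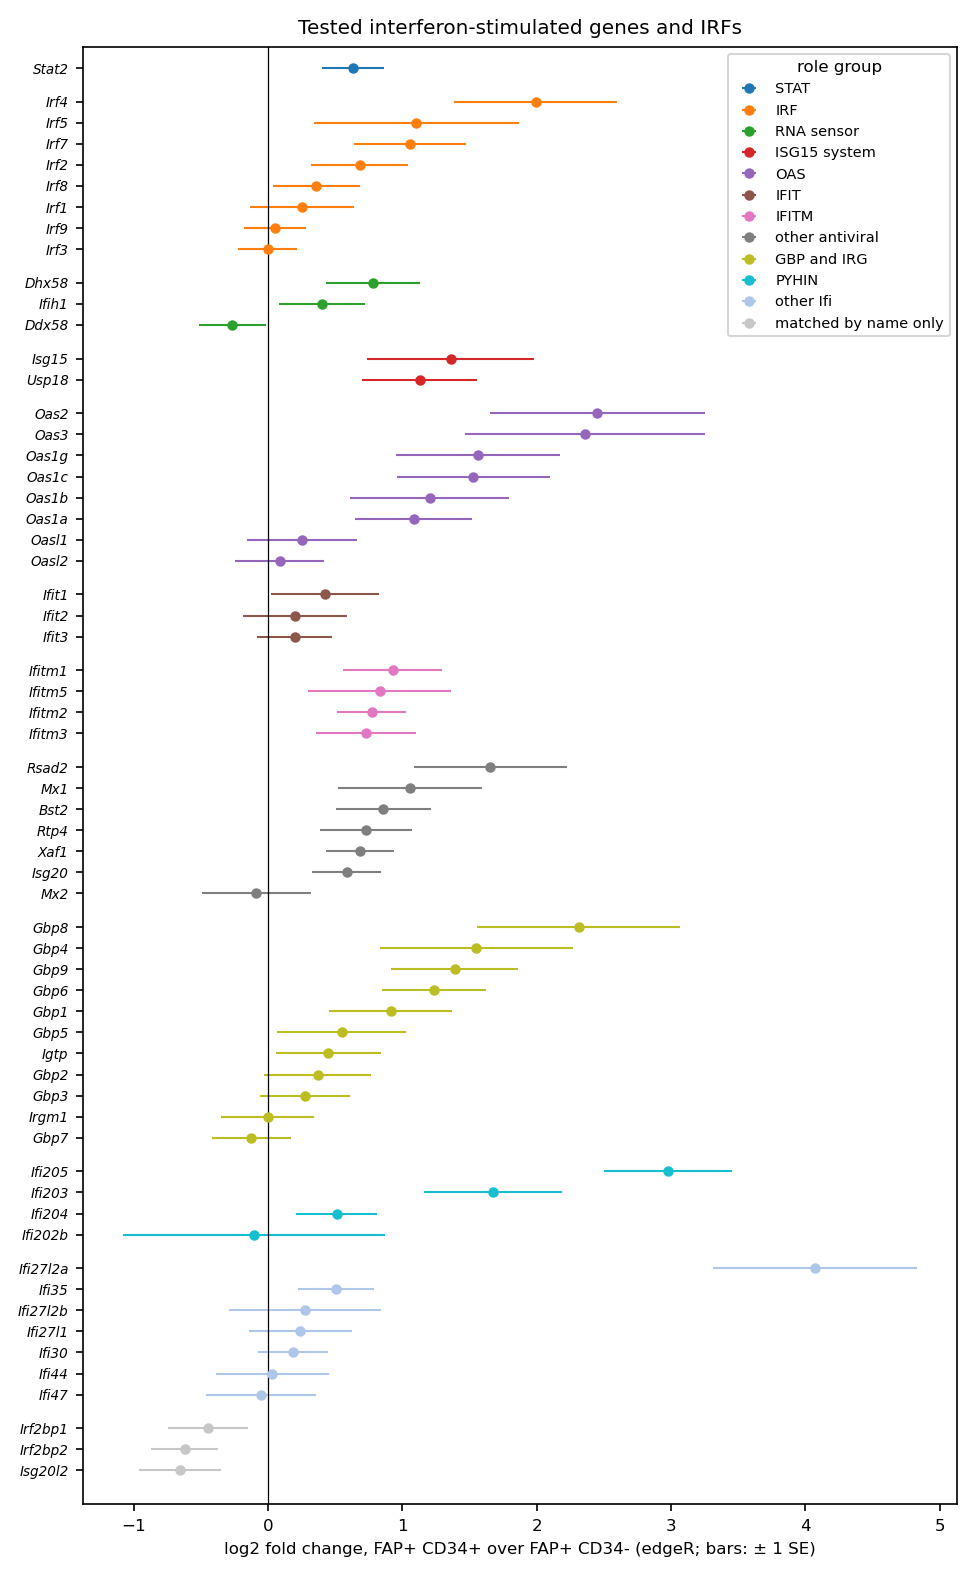
Log2 fold change of FAP+ CD34+ over FAP+ CD34- cells (horizontal axis, edgeR) for 61 of the 63 tested members, by role and in falling order within it; points are estimates and bars are ± 1 SE from 4 libraries. Ifi27l2a (4.07) and Ifi205 (2.98) lie farthest right, and the 3 genes matched by name only lie left of 0.

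Upstream sequences are shown for 7 members, since interferon acts on its target genes through such elements. They come from RefSeq on GRCm38.p6, another build than the mm9 of the counts, and hold the 150 bases just before an annotated transcript start, 5′ to 3′ on the strand of the gene. Capitals mark matches to an ISRE-type motif (GAAA, any 2 bases and GAAA, or on the other strand TTTC, any 2 bases and TTTC) and for Irf1 to a GAS-type motif, TTCNNNGAA, which is its own complement. Isg15, Rsad2, Oas3 and Ifit1 are antiviral genes, Ifi205 had the smallest p of all members, Gbp2 stands for the GTPases, and Irf1 carries the GAS type.
Isg15 (chr4:156200819-156200968, minus strand): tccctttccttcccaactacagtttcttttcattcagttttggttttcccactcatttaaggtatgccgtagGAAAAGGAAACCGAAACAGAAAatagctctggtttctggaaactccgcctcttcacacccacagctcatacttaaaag
Rsad2 (chr12:26456453-26456602, minus strand): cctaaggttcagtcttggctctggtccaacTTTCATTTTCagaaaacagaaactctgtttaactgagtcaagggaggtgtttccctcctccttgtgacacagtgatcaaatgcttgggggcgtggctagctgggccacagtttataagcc
Oas3 (chr5:120777660-120777809, minus strand): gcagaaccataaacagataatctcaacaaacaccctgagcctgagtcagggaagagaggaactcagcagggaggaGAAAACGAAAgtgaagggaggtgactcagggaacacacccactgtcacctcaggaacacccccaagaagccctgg
Ifit1 (chr19:34640739-34640888, plus strand): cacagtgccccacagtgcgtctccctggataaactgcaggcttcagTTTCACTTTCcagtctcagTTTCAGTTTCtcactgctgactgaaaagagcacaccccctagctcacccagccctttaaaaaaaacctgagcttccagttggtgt
Ifi205 (chr1:174031756-174031905, minus strand): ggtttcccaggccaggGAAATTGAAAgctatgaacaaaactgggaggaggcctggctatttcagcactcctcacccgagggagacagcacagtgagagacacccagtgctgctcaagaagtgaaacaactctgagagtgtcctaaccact
Gbp2 (chr3:142620513-142620662, plus strand): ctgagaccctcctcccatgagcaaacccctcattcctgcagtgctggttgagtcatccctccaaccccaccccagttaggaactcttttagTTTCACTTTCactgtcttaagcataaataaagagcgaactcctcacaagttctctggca
Irf1 (chr11:53769864-53770013, plus strand): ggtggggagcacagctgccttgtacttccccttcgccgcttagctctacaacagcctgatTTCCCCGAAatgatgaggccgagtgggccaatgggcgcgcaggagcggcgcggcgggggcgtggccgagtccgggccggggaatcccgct
The match nearest the start was 66 bases before it for Isg15, where 3 matches overlap from 78 bases on, 59 for Gbp2 and 75 for Oas3. It lay 85 bases before the start for Ifit1, which has a second match at 104, and 120 for Rsad2 and 134 for Ifi205. In Irf1 the GAS-type match began 90 bases before the start. In the 250 bases before the start, 21 of the 50 members with a RefSeq window had an ISRE-type match (42.0%), against 3.46% of 27025 genes, and 13 had a GAS-type match (26%), against 8.13%. The 21 tested members with an ISRE-type match had a median log2 fold change of 0.77, and the 25 without had 0.25; 12 tested members with a GAS-type match had a median of 0.41 and 34 without had 0.57. Both types were present in 6 members. A match is a run of letters and not a shown binding site. The members with no window included Dhx58, Gbp4, Gbp6, Gbp8, Gbp9, Gbp10, Gbp11, Ifi204, Ifi27l1, Ifi27l2a, Ifi27l2b, Mx1, Mx2, Oas1b, Oas1d, Oas1e, Oas2, Rtp4 and Usp18.

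Transcripts of the interferons themselves were at the floor of detection. The 16 interferon genes in the table summed to 1.16 and 0.806 CPM in the CD34+ libraries, against 0.454 and 0.273 CPM in the CD34- libraries, and 0 of them passed the filter. Ifnb1 had 1 count in each CD34+ library and 0 in each CD34- library, and Ifng had 0 and 1 counts in CD34+ and 0 and 1 in CD34- libraries. A count of 0 allows up to 3 counts, or between 0.205 and 0.291 CPM by library. Transcripts of all 6 receptor genes in the list passed the filter. Ifngr2, a chain of the interferon gamma receptor, was at 101 and 96.3 CPM in CD34+ libraries, against 252 and 145 CPM in CD34- libraries (-0.97 on the log2 scale, SE 0.31, edgeR adjusted p = 0.237). Its partner Ifngr1 overlapped between groups, with 71.9 and 113 CPM in CD34+ and 97.8 and 132 CPM in CD34- libraries. For the type I receptor, Ifnar1 was at 90.5 and 77.0 CPM against 126 and 118 CPM, and Ifnar2 at 181 and 160.0 CPM against 119 and 143 CPM in CD34- libraries. The chains thus lay in opposite directions, and neither passed (edgeR adjusted p = 0.338 and 0.492).

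The signal transducer Stat2, which serves type I and III interferon, was at 42.0 and 42.0 CPM in CD34+ libraries, against 29.4 and 25.6 CPM in CD34- libraries. The groups did not overlap, and the log2 fold change was 0.63 (SE 0.23, adjusted p = 0.273, edgeR); with each of the 4 libraries left out in turn it lay between 0.60 and 0.63.

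Among the IRFs, Irf2, Irf4, Irf7 and Irf8 lay higher in both CD34+ libraries, and Irf1, Irf3, Irf5 and Irf9 overlapped between groups. Irf1, the factor induced by interferon gamma, was the most abundant IRF, with a mean of 113 RPKM over the 4 libraries. It stood at 265 and 437 CPM in CD34+ libraries, against 229 and 358 CPM in CD34- libraries, and the groups overlapped (0.25 on the log2 scale, SE 0.39). Irf3, the constitutive factor that switches on Ifnb1, was at 46.2 and 47.3 CPM against 50.8 and 44.4 CPM in CD34- libraries. Irf9, the DNA-binding partner of Stat2, was at 39.2 and 40.3 CPM against 37.8 and 39.8 CPM. Both overlapped, with log2 fold changes of -0.0023 (SE 0.22) for Irf3 and 0.051 (SE 0.23) for Irf9, and both intervals of ± 1 SE include 0.

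Irf7, the factor that amplifies type I interferon, was at 101 and 45.2 CPM in CD34+ libraries, against 33.5 and 37.6 CPM in CD34- libraries (1.06 on the log2 scale, SE 0.42, adjusted p = 0.291, edgeR). CD34+ replicate 1 was the high library, and without it the log2 fold change was 0.33. Irf5, best known from myeloid cells, was high in that library alone, with 11.5 and 2.34 CPM in CD34+ and 3.03 and 3.49 CPM in CD34- libraries, and its log2 fold change of 1.10 (SE 0.76) turned to -0.49 without it. Irf2, an antagonist of Irf1, was at 17.1 and 10.8 CPM against 9.003 and 8.61 CPM in CD34- libraries. Irf8, a factor of myeloid and lymphoid cells, was at 14.9 and 11.5 CPM against 11.2 and 9.70 CPM. Irf4, a lymphoid factor, was low, at 1.94 and 1.25 CPM against 0.454 and 0.342 CPM in CD34- libraries. Irf4 entered the fit through its CD34+ libraries alone, so its values are a description with no test. Irf2 and Irf8 did not overlap between groups, and neither passed (edgeR adjusted p = 0.391 and 0.59). Without CD34+ replicate 1 their log2 fold changes were 0.29 and 0.13.

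Of the cytosolic sensors of viral RNA, Dhx58 lay higher and Ddx58 lower in both CD34+ libraries, and neither passed (edgeR adjusted p = 0.330 and 0.611). Dhx58, encoding LGP2, was at 10.6 and 10.4 CPM in CD34+ libraries, against 5.90 and 6.42 CPM in CD34- libraries (0.78 on the log2 scale, SE 0.35). Ddx58, encoding RIG-I, lay the other way with 31.2 and 30.2 CPM against 34.4 and 40.0 CPM (-0.26, SE 0.25, and -0.077 without CD34- replicate 2). Ifih1, encoding MDA5, overlapped, at 25.6 and 31.0 CPM in CD34+ and 17.2 and 25.6 CPM in CD34- libraries.

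A set of antiviral genes was highest in CD34+ replicate 1. Isg15, a ubiquitin-like modifier, was at 152 and 46.5 CPM in CD34+ libraries, against 26.6 and 50.8 CPM in CD34- libraries. The groups overlapped, since CD34- replicate 2 lay above CD34+ replicate 2, and the log2 fold change of 1.36 (SE 0.62) was 0.23 without CD34+ replicate 1. Usp18, which removes Isg15 and restrains the type I receptor, was at 32.3 and 14.8 CPM against 11.3 and 10.6 CPM (1.13, SE 0.43; 0.43 without that library). Rsad2, encoding viperin, was at 45.1 and 15.4 CPM in CD34+ libraries, against 7.49 and 11.8 CPM in CD34- libraries (1.66, SE 0.57; 0.65 without it). For Usp18 and Rsad2 the groups did not overlap, and neither passed (adjusted p = 0.283 and 0.260, edgeR).

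The oligoadenylate synthetases, which make the second messenger that activates RNase L, showed the largest median among the families with more than 4 tested genes. All 8 tested members were positive (48.7% of all tested genes), with a median log2 fold change of 1.37. At an unadjusted p of 0.05 edgeR placed 5 higher (background 9.81%), and 0 passed over all genes. The 5 include Oas3, which needed its CD34+ libraries to pass the filter. Oas2 was at 18.8 and 4.10 CPM in CD34+ libraries, against 2.87 and 1.44 CPM in CD34- libraries (2.45, SE 0.80, adjusted p = 0.246, edgeR; adjusted p = 0.0232, DESeq2). Without CD34+ replicate 1 its log2 fold change was 0.94. Oas1a was at 19.8 and 11.6 CPM against 5.90 and 8.95 CPM in CD34- libraries (1.09, SE 0.43). Oas3, named after its values were seen, was low, at 5.13 and 1.17 CPM in CD34+ libraries, against 0.908 and 0.342 CPM in CD34- libraries. All 8 genes were higher in CD34+ replicate 1 than in CD34+ replicate 2, against 6500 of the 13875 tested genes. The synthetase-like genes Oasl1 and Oasl2, also chosen on sight, had log2 fold changes of 0.25 and 0.090 and overlapped. Oas1a, Oas1b, Oas1c and Oas1g are close copies of each other, and Oas1b is truncated in most laboratory strains, so the split of reads among them is uncertain.

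Genes of the IFIT family, which bind foreign RNA, had small log2 fold changes, and the windows of Ifit1 and Ifit3 held the ISRE-type motif. Ifit3 was at 15.7 and 16.4 CPM in CD34+ libraries, against 13.7 and 14.6 CPM in CD34- libraries, which is 0.20 on the log2 scale (SE 0.28). Ifit1 and Ifit2 overlapped, with log2 fold changes of 0.43 and 0.20 (SE 0.40 and 0.38). They are named here after their values were seen, to complete the family.

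The IFITM genes, whose products block virus entry at membranes, held the most abundant pair of members per length. Ifitm3 and Ifitm2 ranked first and second of the 71 by mean RPKM, at 501 and 237 RPKM over the 4 libraries. Ifitm3 was at 719.9 and 422 CPM in CD34+ libraries, against 415 and 291 CPM in CD34- libraries (0.73 on the log2 scale, SE 0.37; 0.26 without CD34+ replicate 1). Ifitm2 was at 258 and 261 CPM against 174 and 136 CPM (0.77, SE 0.25, adjusted p = 0.248, edgeR), with little spread in CD34+ cells. Ifitm1 was at 41.0 and 21.7 CPM in CD34+ libraries, against 16.3 and 17.0 CPM in CD34- libraries (0.93, SE 0.37; 0.37 without that library). Ifitm5, best known from bone, was at 4.75 and 4.25 CPM against 3.63 and 1.57 CPM. In all 4 the CD34+ libraries lay above the CD34- libraries (background 23.4%), and 0 passed. Reads of these similar genes may be shared.

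Counting Rsad2, 6 of the 7 other antiviral genes were higher in both CD34+ libraries (background 23.4%). Bst2, encoding tetherin, was at 131 and 73.9 CPM in CD34+ libraries, against 52.2 and 61.9 CPM in CD34- libraries (0.86 on the log2 scale, SE 0.35; 0.36 without CD34+ replicate 1). Xaf1, a partner of the apoptosis inhibitor XIAP, was at 26.3 and 26.4 CPM against 16.4 and 16.7 CPM (0.69, SE 0.25, adjusted p = 0.276, edgeR). Rtp4, a receptor transporter protein, was at 12.8 and 14.4 CPM against 7.19 and 9.29 CPM. Isg20, an RNA exonuclease, was at 26.6 and 34.5 CPM in CD34+ libraries, against 21.9 and 19.3 CPM in CD34- libraries. Xaf1 replicates lay close together, and its log2 fold change lay between 0.57 and 0.77 when each library was left out. The Mx genes were under 5 CPM in every library, and C57BL/6 mice carry a broken Mx1.

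**Figure D3:**
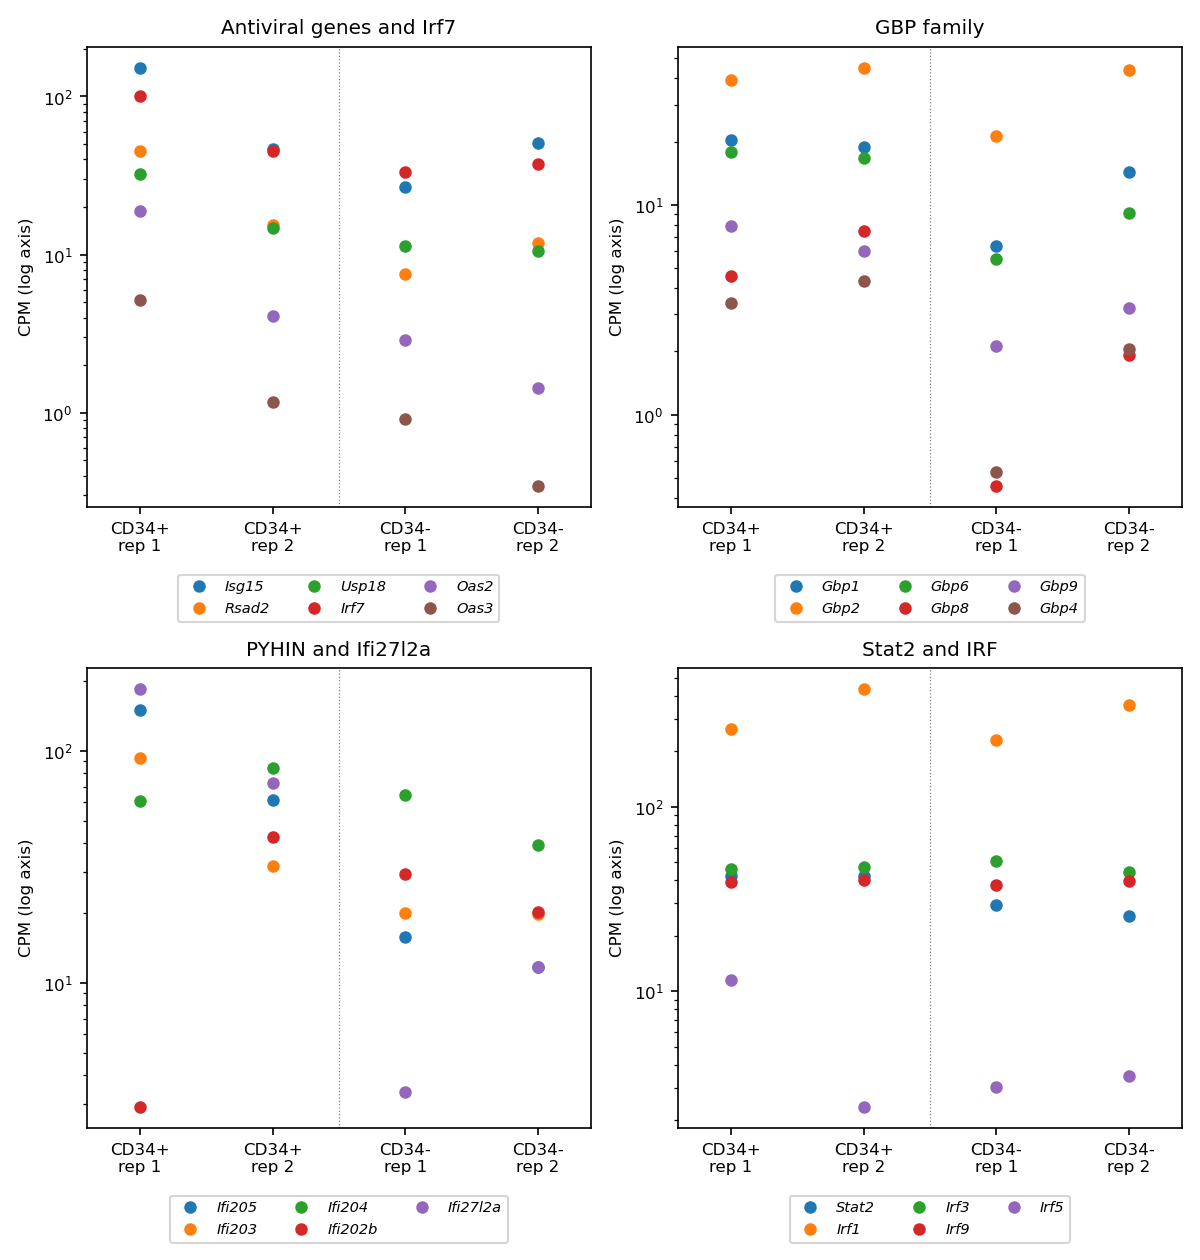
CPM (vertical log axis) of selected members in each of the 4 libraries, CD34+ left of the dotted line and CD34- right of it, 1 point per gene and library. In the panel of antiviral genes CD34+ replicate 1 is highest for all 6, as with Isg15 at 152 CPM; in the GBP panel CD34- replicate 1 is lowest for all 6, as with Gbp8 at 0.454 CPM.

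GTPases of the GBP and IRG families, which attack the vacuoles of intracellular pathogens, had another pattern over the libraries. Of 11 tested genes 9 were positive (48.7% of all tested genes), with a median log2 fold change of 0.55. At an unadjusted p of 0.05 edgeR placed 3 higher (background 9.81%), and 0 passed over all genes. The 3 include Gbp8, which needed its CD34+ libraries to pass the filter. Gbp6 was at 17.8 and 16.7 CPM in CD34+ libraries, against 5.52 and 9.16 CPM in CD34- libraries (1.23, SE 0.39, adjusted p = 0.233, edgeR). Gbp1, whose row name is now an older name of Gbp2b, was at 20.3 and 18.8 CPM against 6.35 and 14.3 CPM (0.91, SE 0.46), and 0.37 without CD34- replicate 1. Igtp, an IRG protein, was at 17.1 and 15.5 CPM in CD34+ libraries, against 8.62 and 15.2 CPM in CD34- libraries (0.45, SE 0.39), and without CD34- replicate 1 its log2 fold change was 0.011. Gbp8, Gbp9, Gbp4 and Gbp2 are under the level or overlap that the naming rule asks for and were added after their values were seen. Gbp8 was at 4.55 and 7.47 CPM against 0.454 and 1.91 CPM in CD34- libraries (2.31, SE 0.75), and its log2 fold change was 1.56 without CD34- replicate 1 and 3.79 without CD34- replicate 2. Gbp9 was at 7.94 and 6.01 CPM against 2.12 and 3.21 CPM, and Gbp4 at 3.39 and 4.32 CPM against 0.53 and 2.05 CPM. The abundant Gbp2 overlapped, at 39.5 and 44.9 CPM in CD34+ and 21.3 and 43.7 CPM in CD34- libraries. Irgm1, Gbp7, Gbp3 and Gbp5 had log2 fold changes of -0.0019, -0.12, 0.28 and 0.55.

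The oligoadenylate synthetases and the GBP and IRG genes differed in how libraries of the same fraction compared. On the log2 (CPM + 0.5) scale, 12 members were at least 1 unit higher in CD34+ replicate 1 than in CD34+ replicate 2, and 1 was at least 1 unit lower, against 1020 and 894 of the 13875 tested genes. The 12 were Isg15, Usp18, Rsad2, Irf5, Irf7, Oas1b, Oas1g, Oas2, Oas3, Ifi203, Ifi205 and Ifi27l2a. The median difference was 0.96 for the 8 oligoadenylate synthetases and -0.18 for the 11 GBP and IRG genes. Not all antiviral families went with the synthetases, since the 3 IFIT genes had a median of -0.54 and 0 of them were higher in CD34+ replicate 1. Between the CD34- libraries, all 11 GBP and IRG genes were higher in replicate 2 than in replicate 1, with a median difference of 0.70, against 5289 of the 13875 tested genes and a median of -0.13. The synthetases had a median of -0.19 there and the IFIT genes 0.17. CD34+ replicate 1 is also the library with the highest myeloid, T and NK, mesothelial and epithelial marker sums. Its T and NK sum of 20.3 CPM was nearly all Cd3e (18.99 CPM), while Cd3d, Cd3g and Cd8a had 1, 2 and 2 counts there. The epithelial sum was near that of CD34- replicate 1 (887 against 819 CPM). Myeloid, mesothelial and epithelial sums were higher in replicate 1 than in replicate 2 of both fractions. The part of those cells in the pattern was not tested.

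**Figure D4:**
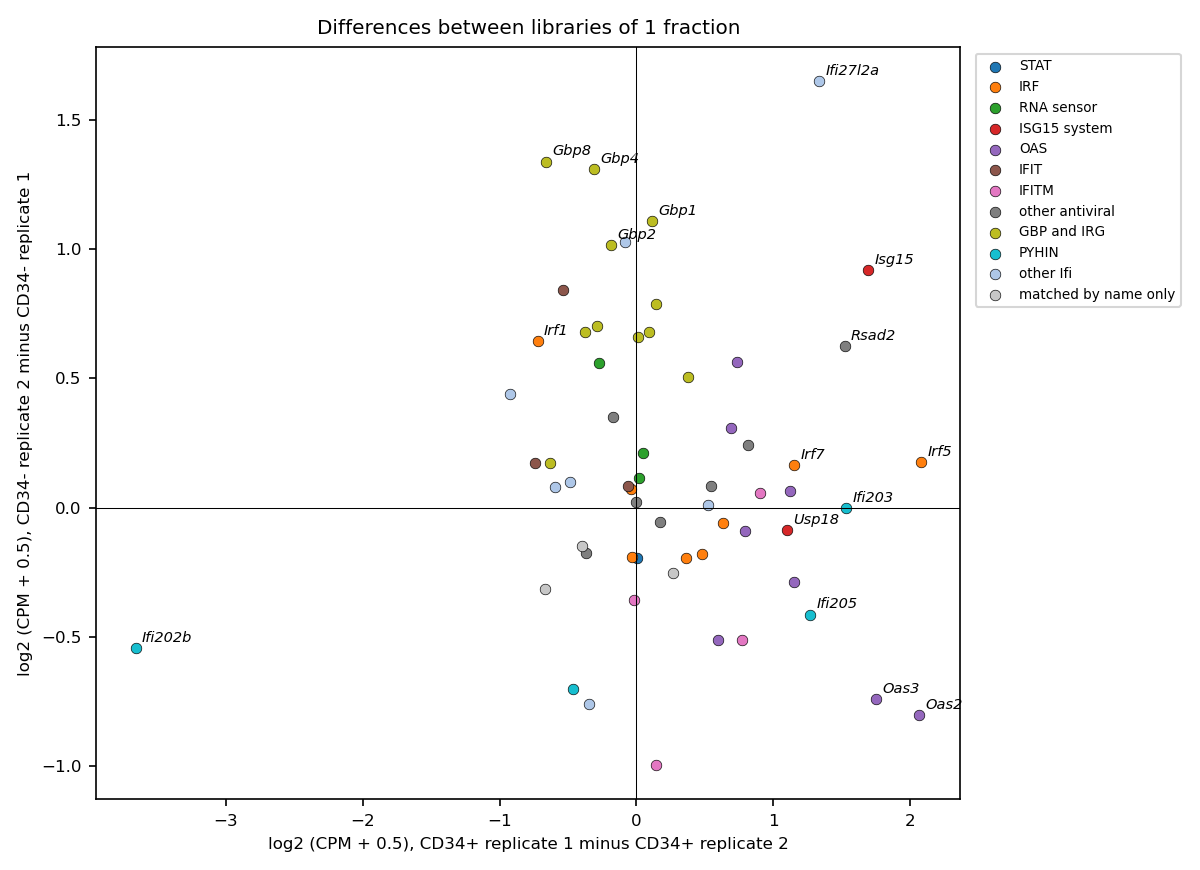
Differences on the log2 (CPM + 0.5) scale between the 2 CD34+ libraries (horizontal axis, replicate 1 minus replicate 2) and between the 2 CD34- libraries (vertical axis, replicate 2 minus replicate 1) for 61 of the 63 tested members, coloured by role. Isg15 (1.69), Oas2 (2.07) and Irf5 (2.08) lie far right, the GBP and IRG genes lie above 0, and Ifi202b (-3.66) lies far left.

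PYHIN genes, a family of DNA-binding and DNA-sensing proteins, held the smallest p of all members and the widest spread. Ifi205 was at 149 and 61.5 CPM in CD34+ libraries, against 15.7 and 11.7 CPM in CD34- libraries. Both CD34+ libraries lay above both CD34- libraries, with 105 ± 62.0 CPM in CD34+ and 13.7 ± 2.86 CPM in CD34- cells (SD, n = 2 each), and the log2 fold change was 2.98 (SE 0.48, adjusted p = 0.163, edgeR; adjusted p = 1.3e-07, DESeq2). When each library was left out it lay between 2.16 and 3.47. Ifi203 was at 93.1 and 31.9 CPM against 19.9 and 19.9 CPM in CD34- libraries (1.68, SE 0.51, adjusted p = 0.230, edgeR; adjusted p = 0.0289, DESeq2), and 0.67 without CD34+ replicate 1. Ifi204 overlapped, at 60.6 and 83.9 CPM in CD34+ and 64.2 and 39.3 CPM in CD34- libraries. Ifi202b, named after its values were seen, was at 2.91 and 42.6 CPM in CD34+ libraries, against 29.5 and 20.1 CPM in CD34- libraries, so that CD34+ replicate 1 was far below the others. These genes are near-identical in parts, and by the authors' estimated fragments the log2 fold change of Ifi205 was 3.74 and that of Ifi202b 0.15, against -0.10 for Ifi202b by counts (SE 0.98).

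Ifi27l2a, encoding a small hydrophobic protein induced by type I interferon, had the largest log2 fold change of the members. It was at 184 and 72.7 CPM in CD34+ libraries, against 3.404 and 11.8 CPM in CD34- libraries, or 129 ± 79.0 CPM in CD34+ and 7.58 ± 5.90 CPM in CD34- cells (SD, n = 2 each). The groups did not overlap, and the log2 fold change was 4.07 (SE 0.76, adjusted p = 0.173, edgeR; adjusted p = 1.8e-08, DESeq2), and between 3.21 and 5.32 when each library was left out. Its relatives did not share this. Ifi27l1 was at 133 and 252 CPM in CD34+ libraries, against 139 and 188 CPM in CD34- libraries, and overlapped (0.24, SE 0.38). Ifi27l2b was under 2 CPM in every library. Ifi35 was at 32.9 and 50.04 CPM against 28.6 and 30.3 CPM in CD34- libraries (0.51, SE 0.28). The thiol reductase gene Ifi30, the GTPase gene Ifi47 and Ifi44 overlapped, with log2 fold changes of 0.19, -0.049 and 0.033.

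The 3 genes matched by name only lay the other way, and they account for 3 of the 4 members that were lower in both CD34+ libraries. Irf2bp2, a corepressor that binds Irf2, was at 105 and 87.0 CPM in CD34+ libraries, against 163 and 137 CPM in CD34- libraries (-0.62 on the log2 scale, SE 0.25, adjusted p = 0.299, edgeR). Irf2bp1, its relative, was at 10.4 and 13.8 CPM against 17.6 and 15.9 CPM. Isg20l2, a nucleolar exonuclease, was at 15.7 and 25.3 CPM in CD34+ libraries, against 36.4 and 29.2 CPM in CD34- libraries. Without these 3 genes 52 of 60 tested members were positive, with a median log2 fold change of 0.68.

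Other genes of the pathway, outside the 71, were counted in lists. Of 45 tested interferon-induced genes 36 were positive (48.7% of all tested genes), with a median log2 fold change of 0.40. Of these genes 13 lay higher (background 9.81%) and 1 lower (background 6.65%) at an unadjusted p of 0.05 (edgeR), and 0 passed over all genes. Ly6e, a surface antigen, was at 515 and 344 CPM in CD34+ libraries, against 162 and 158 CPM in CD34- libraries (1.44, SE 0.32, adjusted p = 0.177, edgeR). Samhd1, a dNTP hydrolase that restricts viruses, was at 77.3 and 68.9 CPM against 30.9 and 34.9 CPM (1.17, SE 0.25). Trim30a was at 33.6 and 32.6 CPM against 13.6 and 14.6 CPM (1.24, SE 0.26), and Slfn5 at 81.5 and 94.4 CPM against 41.5 and 47.5 CPM in CD34- libraries. DESeq2 called Ly6e, Samhd1 and Trim30a of this list (adjusted p = 0.0027, 0.023 and 0.022; background 2.85%). Their CD34+ libraries differed little from each other, except for Ly6e.

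Sensing and signalling genes were counted in the same way. Of 13 tested genes that act upstream of interferon 9 were positive (48.7% of all tested genes), with a median log2 fold change of 0.34. At an unadjusted p of 0.05 edgeR placed 0 of them (background 9.81% higher and 6.65% lower), and the list is too short to read this as a result. Traf3 was at 63.6 and 34.7 CPM in CD34+ libraries, against 28.6 and 32.2 CPM in CD34- libraries. Tbk1, the kinase of Irf3, was at 42.9 and 25.8 CPM against 24.8 and 23.7 CPM, Ikbke at 29.2 and 29.7 CPM against 23.8 and 20.9 CPM, and Trim25 at 66.0 and 66.3 CPM against 51.8 and 54.1 CPM. Among 10 receptor kinases and inhibitors 7 were positive (48.7% of all tested genes), with a median of 0.31. At an unadjusted p of 0.05 edgeR placed 0 of these 10, with the same backgrounds and the same limit. Socs1, the feedback inhibitor, was at 32.8 and 66.2 CPM in CD34+ and 17.9 and 38.3 CPM in CD34- libraries and overlapped. Jak2 overlapped too, at 198 and 132 CPM in CD34+ and 87.2 and 144 CPM in CD34- libraries. Trim24, a transcriptional corepressor, was at 23.2 and 31.2 CPM against 39.5 and 37.7 CPM in CD34- libraries, and Pias1 at 23.3 and 37.1 CPM against 37.4 and 39.8 CPM. The 6 receptor genes had a median log2 fold change of -0.37, with 5 negative (51.3% of all tested genes). Of the 6, 1, Ifngr2, lay lower at an unadjusted p of 0.05 (edgeR, background 6.65%).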

How the data were processed

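Gene expression was measured by sequencing in 2 libraries of FAP+ CD34+ and 2 of FAP+ CD34- cells. Per the labels, RNA was purified by Purelink and then underwent MessageAmp amplification. Bowtie2, TopHat2, HTSeq, edgeR and the mouse build mm9 stand in the submitters' processing notes; versions, annotation and the use of strand were not given in the sources used here, so reads of overlapping or antisense genes may be mixed. The authors deposited whole-number read counts per gene and RPKM values for 22609 genes, whose scaling totals are not given, and bias-adjusted FPKM values with estimated counts of fragments for 22558 genes. The FPKM were not used for a test, and the estimated counts were rounded. Each table holds 14 further columns of values, which match no sample here and were not used.

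Counts were tested with edgeR 4.0.16 (R 4.3.3), quasi-likelihood F test, TMM factors from 0.961 to 1.05, filterByExpr, group as the only term and all 4 libraries, with 2 residual degrees of freedom and 4.17 added by moderation; tests are two-sided. Standard errors were derived from the log2 fold change and its F statistic. Levels are CPM by column total, without TMM. The smallest p of an exact permutation test in this design is above the threshold, so none was run. Fits were tested on simulated data. Alternatives used DESeq2 1.42.0 and limma 3.58.1, other scalings and filters, the replicate number as a block, leaving out each library, limma on log2 of RPKM plus 1 or 0.1 for genes with a mean of 0.5 RPKM or more, and edgeR on the estimated fragments, the last chosen after seeing the data.

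Members, role groups, pathway and marker lists were chosen with earlier results of these data known. Values per library are given for Stat2, the IRFs and each tested member of at least 5 CPM whose groups do not overlap or whose mean is at least 50 CPM, and, in each pathway list, for at most 4 genes ranked by p. The values of some members are not reported here, though the counts over the list include them. Other members named with values were chosen after those were seen. Of the 71 names 69 matched a current RefSeq symbol and 2 an older name.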

Additional observations from a re-analysis of the deposited data

How the results depend on the processing

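Over 15 alternatives, 29 of the 36 members given by library kept the sign of their log2 fold change in every one that could be fitted. The number of all genes called higher, 0 by edgeR, was 2 with library totals only, with upper-quartile factors and with a filter of 1 CPM in 2 libraries, 194 with no filter, 39 with the replicate number as a block, 396 by DESeq2, and 25 and 18 by limma on log2 RPKM plus 1 and plus 0.1. The number called lower was 137 with no filter, 23 with the block, 180 by DESeq2, and 81 and 29 by limma on RPKM. Members called higher were 2 with no filter (Ifi205 and Ifi27l2a), 1 with the block (Ifi205, edgeR adjusted p = 0.035), 4 by DESeq2 and 2 by limma on log2 RPKM plus 1. No member was called lower in any alternative (edgeR, DESeq2 and limma), where 1 lay lower at an unadjusted p of 0.05 by edgeR. The labels do not say that a replicate number marks shared animals. The members' median log2 fold change of 0.63 lay between 0.51 and 0.77 when each library was left out and was 0.11 and 0.16 on log2 RPKM plus 1 and plus 0.1, scales on which the median of all genes was -0.36 and -0.47.

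Signs turned for 7 members, none of them called. On log2 RPKM plus 1 and plus 0.1 the values were -0.21 and -0.21 for Ifi27l1, -0.18 and -0.21 for Ifit3, -0.15 and -0.15 for Irf1, -0.049 and -0.063 for Irf8, and -0.33 and -0.36 for Irf9. The authors' scaling totals enter all genes of a library alike, and each of these values lay above the median of all genes on the same scale. Irf9 was -0.037 with no filter. Irf3 was 0.021 with RLE factors and by DESeq2, 0.077 with upper-quartile factors and 0.012 with the filter of 1 CPM. When each library was left out, Ifi27l1 lay between -0.30 and 0.61, Irf1 between -0.15 and 0.70, Irf5 between -0.49 and 1.83, and Irf9 between -0.086 and 0.16. The cause was not tested.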
